A study of Mus musculus with 6 samples.

Results

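The genes of MHC class I antigen presentation were examined in bulk RNA-sequencing data from CD31-enriched primary mouse skin cells kept in normal or high glucose. The 10 genes were listed by their role in this pathway, and they and the related lists below were chosen with earlier results of these data known. Counts of called genes set beside the shares of all tested genes are therefore a description. They are 4 heavy chains (H2-K1, H2-D1, H2-T23 and H2-Q4), the light chain gene B2m, the peptide transporter genes Tap1 and Tap2, the loading factor gene Tapbp, and the immunoproteasome subunit genes Psmb8 and Psmb9. All 10 were among the 55487 genes of the count table and all passed the filter on low counts, which kept 19015 genes. The study asked how a glucose concentration that mimics hyperglycemia changes the cells that the authors describe as skin endothelial cells (ECs), and 3 samples in normal glucose (5 mmol/L) were compared with 3 in high glucose (20 mmol/L) after 48 hours. Both groups came from C57BL/6 mice aged 2-3 months, with the skin of 4-6 mice used in an isolation, so a culture pools animals, and cells of passages 1-6 were used. The captions give 3 mice per group, but how these relate to the pooled isolations and to the samples is not given in the sources used here, and the P values below measure the spread between these samples, which may be technical.

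Class I molecules display peptides from inside the cell to CD8 T cells and natural killer cells. The proteasome cuts proteins into peptides, and the immunoproteasome is a form of it in which inducible catalytic subunits take the place of the constitutive ones. The transporter formed by the Tap1 and Tap2 proteins carries the peptides into the endoplasmic reticulum, where tapasin, the product of Tapbp, holds the transporter next to empty heavy chains that are paired with beta-2 microglobulin. Interferons raise the transcription of most of these genes, and ECs are known to present class I antigens constitutively.

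Total counts per sample lay between 120192466 and 146881356, and levels are given as TMM-normalized CPM, read counts scaled to a common library total. Groups were compared with edgeR's quasi-likelihood test, and genes with an adjusted P value below 0.05 were called whatever the size of the fold change. With this rule 31.4% of all tested genes were called in either direction, 16.9% as higher and 14.5% as lower in high glucose, and 46.4% of all tested genes had groups that did not overlap. The split of calls depended on the scaling, since 46.2% of calls were lower with TMM, 56.5% with upper quartile factors and 72.9% with library size alone, which moved the median log2 fold change of all tested genes from 0.0062 to -0.109. The endothelial label was checked against marker genes. Pecam1, which encodes CD31, had 12-19 counts per sample in normal and 9-18 in high glucose, and Tie1, Emcn and Cldn5 did not pass the filter, whereas 10 fibroblast markers summed to between 38600 and 41800 CPM in normal glucose and between 70800 and 75700 CPM in high glucose. Of these fibroblast markers 8 were called higher, Col3a1 by 1.39 on the log2 scale, and Thy1 was called lower. The summed level of 12 endothelial markers was 163-187 CPM in normal and 155-162 CPM in high glucose, of which Eng, a gene that fibroblasts can also express, made up 142-166 and 136-143 CPM. Of the other endothelial markers, Cdh5 (log2 fold change -1.03) and Egfl7 (-0.23) were called lower, and Tek (0.66) and Erg (1.45, at most 0.129 CPM in any sample) were called higher. The calls of Egfl7 and Erg were kept in 2 and 1 of the 6 fits that left out a sample. The 12 macrophage and leukocyte markers summed to 8.74-9.65 CPM in normal and 6.02-6.72 CPM in high glucose. Tyrobp, Cd3e and Nkg7 were at 0 in every sample, and Csf1r and Cd68 were called lower. The call of Cd68 was kept in 2 of the 6 fits that left out a sample. The 7 keratinocyte markers summed to 4.05-5.03 CPM in normal and 4.61-5.04 CPM in high glucose, with Krt5 called higher. With a filter of at least 1 CPM in 3 samples, 2 keratinocyte markers were tested and 0 were called. Some of these markers differed between the groups and others did not. Not called were 5 of 9 tested endothelial, 3 of 5 macrophage and leukocyte and 2 of 3 keratinocyte markers. The part of the markers in the class I results was not tested. In bulk samples, fewer cells of a type and less RNA per cell cannot be told apart.

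High glucose went with small and divergent differences along the class I pathway. Of the 10 genes, 4 were called higher (H2-K1, H2-D1, H2-T23 and Tapbp), 1 was called lower (Psmb8) and 5 were not called, against 31.4% called among all tested genes. The groups did not overlap for 7 of the 10 genes, 5 of them higher and 2 lower in high glucose, against 25.1% and 21.3% of all tested genes. The median log2 fold change of the 10 genes was 0.04, beside 0.0062 for all tested genes, and their median absolute log2 fold change was 0.165, beside 0.202 for all tested genes. The median of the 10 genes turned to -0.07 with library size alone, and the called genes were then H2-T23 as higher and Psmb8, B2m, Tap1 and Tap2 as lower. The count of genes called higher also fell from 4 to 1 without high-glucose replicate 1 and to 1 without high-glucose replicate 3, and H2-T23 was the gene left in both cases.

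**Figure D1:**
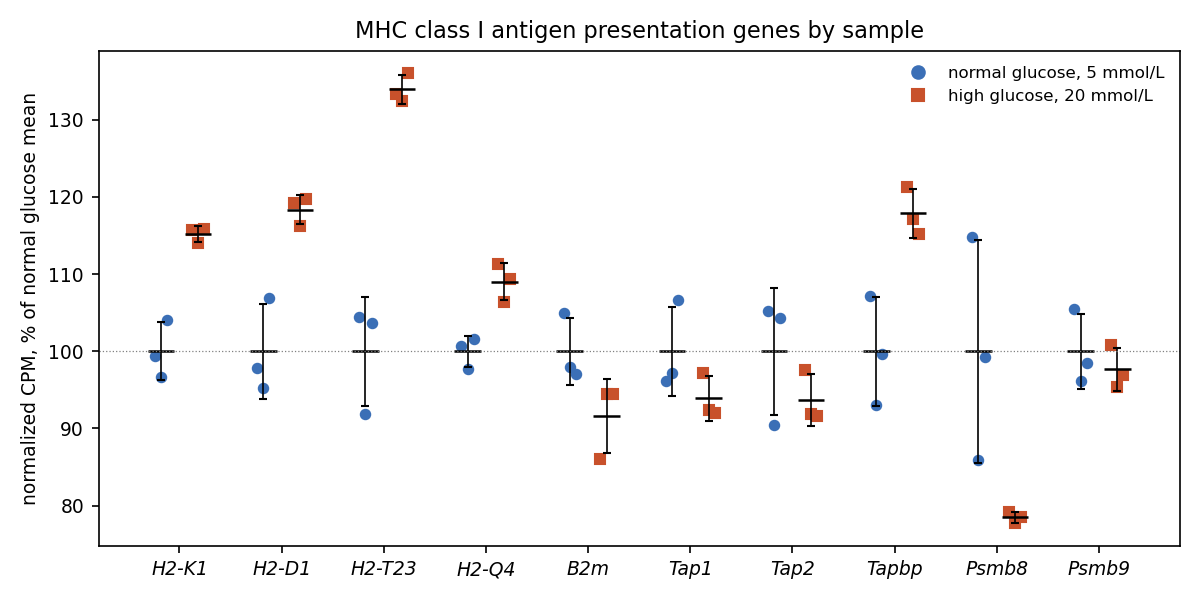
TMM-normalized CPM of the 10 class I genes in each of the 6 samples, as a percentage of the gene's mean in normal glucose. Circles are normal glucose, squares are high glucose, bars are the group mean and SD (n = 3). H2-T23 had the largest rise of the mean among the 10 genes, 34.3% by the fitted fold change, Psmb8 the largest fall, and Tap1, Tap2 and Psmb9 overlapped between the groups.

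The classical heavy chains H2-K1 and H2-D1 bind peptides for CD8 T cells, and H2-D1 had the highest level per exon length of the 4 heavy chains. H2-D1 lies on chr17:35262730-35267499 (plus strand) and H2-K1 on chr17:33996017-34000347 (minus strand) of GRCm38. The promoters of H2-K1, H2-D1 and H2-Q4 are shown first because a nearly identical stretch, with the letters of a kappa B site beside those of an interferon-stimulated response element, stands upstream of the RefSeq start of all 3 genes, of which H2-K1 and H2-D1 were called. The sequences are from RefSeq for GRCm38.p6 and read 5′ to 3′ along the gene's strand, with letters that match a searched motif in capitals. They lie at chr17:34000429-34000458 (H2-K1), chr17:35262923-35262952 (H2-D1) and chr17:35379443-35379472 (H2-Q4). For H2-D1 the RefSeq start used is at position 35263094, so the stretch lies within the longer gene given above.
H2-K1: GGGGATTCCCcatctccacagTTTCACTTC
H2-D1: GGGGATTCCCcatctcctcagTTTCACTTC
H2-Q4: gGGGATTTCCcatctccccagTTTCACTTC
The stretches of H2-K1 and H2-D1 differed at 1 of 30 positions, and that of H2-Q4 differed from each of them at 2.

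H2-K1 had 546, 531 and 572 CPM in normal glucose and 636, 627 and 637 CPM in high glucose. All high-glucose samples lay above all normal-glucose samples, and the mean rose from 550 ± 20.7 to 633 ± 5.16 CPM (SD, n = 3 per group), a log2 fold change of 0.20 (SE 0.050, 95% interval 0.09 to 0.32, adjusted P = 0.0111 in edgeR's quasi-likelihood test). H2-D1 had 806, 784 and 881 CPM in the normal-glucose samples and 982, 957 and 986 CPM in high glucose. Its groups were also apart, with means of 824 ± 50.7 and 975 ± 15.9 CPM and a log2 fold change of 0.24 (SE 0.057, 95% interval 0.12 to 0.37, edgeR adjusted P = 0.0084). Both differences were below 20% of the normal-glucose mean, 15.2% for H2-K1 and 18.4% for H2-D1. Both calls were lost with library size alone (log2 fold changes 0.09 and 0.13, adjusted P = 0.168 and 0.0858 in edgeR), without high-glucose replicate 1 (adjusted P = 0.0745 and 0.0554) and without high-glucose replicate 3 (adjusted P = 0.0826 and 0.0616).

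H2-T23 encodes a nonclassical heavy chain that presents signal peptides of classical class I molecules to an inhibitory receptor on natural killer cells. It is on chr17:36029773-36032855 (minus strand). H2-T23 had 116, 102 and 115 CPM in normal glucose and 148, 147 and 151 CPM in high glucose. The lowest high-glucose sample exceeded the highest normal-glucose sample by more than the range within either group. Its mean rose from 111 ± 7.63 to 149 ± 2.14 CPM (SD, n = 3 per group), a log2 fold change of 0.43 (SE 0.059, 95% interval 0.29 to 0.56, adjusted P = 3.68e-04 in edgeR's quasi-likelihood test). The call held in 17 of 17 alternative fits, with log2 fold changes from 0.31 to 0.44.

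H2-Q4, a nonclassical heavy chain gene of the Q region on chr17:35379617-35385290 (plus strand), had 104, 101 and 105 CPM in normal glucose and 115, 110 and 113 CPM in high glucose. The groups did not overlap, with means of 103 ± 2.49 and 112 ± 2.60 CPM, but the log2 fold change of 0.12 (SE 0.049, 95% interval 0.01 to 0.23) did not pass the threshold (edgeR adjusted P = 0.0838) and was 0.01 with library size alone.

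Because heavy chain genes resemble one another, reads could have been divided differently among them, and their uniqueness was computed from all 75-base windows of their transcripts. Windows found in another gene made up 3.1% of H2-K1, 5.56% of H2-D1, 5.91% of H2-T23 and 20.7% of H2-Q4. An antisense gene, Gm11131, overlaps 496 exonic bases of H2-Q4 and had 278-418 counts per sample, and whether the counting used strand is not given in the sources used here. Of the 23 heavy chain genes in the table, H2-T10 and H2-Bl are annotated as polymorphic pseudogenes and H2-K2 as a transcribed pseudogene. The sum over these 23 genes does not depend on how reads were divided among them, but windows are also shared with genes outside the sum, such as Gm7030 (2.89% of H2-D1) and H2-Q5 (5.32% of H2-Q7). It was 2030, 1920 and 2100 CPM in normal glucose and 2200, 2160 and 2220 CPM in high glucose. The groups were apart and the mean was 9.02% higher, 2010 ± 92.0 against 2190 ± 28.8 CPM (n = 3 per group; exact two-sided permutation P = 0.1, the smallest that 3 against 3 allows). With library size alone the log2 difference of this sum went from 0.12 to 0.01 (exact permutation P = 0.8).

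Of 23 listed heavy chains outside the 10 genes, 19 were in the table and 13 were tested, with 2 called higher and 2 lower, near the shares of 16.9% and 14.5% among all tested genes. H2-T22, whose nonclassical product is a ligand of some gamma-delta T cell receptors, had 304, 269 and 284 CPM in normal glucose and 184, 185 and 190 CPM in high glucose. It fell by 0.62 on the log2 scale (SE 0.057, edgeR adjusted P = 2.27e-05). The closely related H2-T10 fell by 0.61 (SE 0.058, edgeR adjusted P = 2.51e-05), from 32.8 ± 1.84 to 21.5 ± 0.545 CPM (n = 3 per group). These genes share 15.7% (of H2-T22) and 16% (of H2-T10) of their windows with each other, so their falls are not independent measurements, and each also overlaps an antisense gene with at most 31 counts in any sample. H2-M3, which presents N-formylated peptides, rose from 17.3 ± 1.03 to 21.8 ± 0.880 CPM (log2 fold change 0.34, SE 0.063, edgeR adjusted P = 0.00245), and H2-Q10 rose from 1.89 ± 0.212 to 3.03 ± 0.227 CPM (log2 fold change 0.68, edgeR adjusted P = 0.00138). H2-Q10 had 211-441 counts per sample, and 12.5% of its windows are found in another gene. In turn, 2.38% of the windows of H2-K1, which has far more counts, are in H2-Q10, so its rise may not be an independent measurement.

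The makeup of the heavy chain counts differed between the groups. H2-D1 held 39.7%, 40.9% and 42.0% of them in normal glucose, against 44.6%, 44.2% and 44.4% in high glucose. The share of H2-K1 went from 27.3% ± 0.393 to 28.9% ± 0.156, that of H2-T23 from 5.50% ± 0.200 to 6.79% ± 0.0476, and that of H2-T22 from 14.2% ± 0.768 to 8.48% ± 0.113 (SD, n = 3 per group). The share of H2-Q4 was 5.13% ± 0.112 and 5.12% ± 0.0744. These shares sum to a fixed total and are given as a description, with no test. Per exon length, H2-T22 was 2.18 ± 0.0741 times as abundant as H2-T23 in normal glucose and 1.06 ± 0.00674 times in high glucose, a ratio chosen after the values were seen.

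B2m encodes the light chain that class I heavy chains share. It lies outside the MHC, on chr2:122147686-122153083 (plus strand). B2m had 1190, 1110 and 1100 CPM in normal glucose and 975, 1070 and 1070 CPM in high glucose. All high-glucose samples lay below all normal-glucose samples, with high-glucose replicate 1 lowest. The means were 1130 ± 47.1 and 1040 ± 55.1 CPM (n = 3 per group), and the log2 fold change of -0.13 (SE 0.058, 95% interval -0.26 to 0.00) did not pass the threshold (edgeR adjusted P = 0.125). It did with upper quartile factors (log2 fold change -0.17, edgeR adjusted P = 0.0479) and with library size alone (-0.24, edgeR adjusted P = 0.00775). Heavy chain to B2m ratios within a sample do not depend on the scaling, but their size depends on the annotated exon lengths. They were chosen after the values were seen and have no test. Per exon length, H2-D1 to B2m was 0.226, 0.235 and 0.266 in normal glucose, against 0.336, 0.298 and 0.308 in high glucose, and H2-K1 to B2m went from 0.142 ± 0.00885 to 0.179 ± 0.0105. The ratio for H2-T23 went from 0.0291 ± 0.00178 to 0.0428 ± 0.00227 and that for H2-Q4 from 0.0302 ± 0.00142 to 0.0359 ± 0.00268, so in all 4 ratios the high-glucose samples lay above the normal-glucose samples.

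The promoters of B2m and H2-T22 are shown because both carry a longer form of the response element, although H2-T22 was called lower and B2m was not called. They are from RefSeq for GRCm38.p6, at chr2:122147537-122147656 on the plus strand and chr17:36042799-36042947 on the minus strand, with letters matching a searched motif in capitals. In B2m the capitals mark, from the left, the longer response element (reverse strand), TGACG and ATTGG. In H2-T22 they mark ATTGG, the longer response element, ATTGG again and CCAAT.
B2m: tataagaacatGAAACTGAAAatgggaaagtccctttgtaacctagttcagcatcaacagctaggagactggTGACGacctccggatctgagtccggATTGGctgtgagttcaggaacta
H2-T22: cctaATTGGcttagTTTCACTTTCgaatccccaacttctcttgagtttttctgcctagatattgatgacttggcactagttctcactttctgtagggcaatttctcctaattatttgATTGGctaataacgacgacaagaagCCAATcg
A promoter entry was found for 9 of the 10 genes, and the 250 bases before each start were searched on both strands. The short response element letters TTTCNNTTC were in H2-K1, H2-D1 and H2-Q4, against 6.31% of all 32851 promoters. The longer form, with 1 more T after the unspecified bases, was added after the promoters had been seen and was in B2m and H2-T23, against 2.98% of all promoters. None of the 9 searched genes had both forms, and the matches to the other motifs did not overlap with them. The inverted CCAAT box ATTGG was in 8 of the 9 genes (33.8% of all promoters), the kappa B letters GGGNNTNCC in 5 (14%) and the cAMP response letters TGACG in 6 (17.8%). None of these letters was found in this window of Psmb8. For each motif, the letters were found in genes that were called and in genes that were not, and a match of letters is a description only.

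The Tap1 and Tap2 transporter genes lie side by side in the MHC with the immunoproteasome genes, Tap1 on chr17:34187553-34197225 and Tap2 on chr17:34203527-34216321, both on the plus strand. Tap1 had 76.7, 77.5 and 85.0 CPM in normal glucose and 77.5, 73.7 and 73.4 CPM in high glucose. Tap2 had 110, 94.6 and 109 CPM in normal glucose and 102, 96.0 and 95.7 CPM in high glucose. The groups overlapped for both genes. Neither was called, with log2 fold changes of -0.09 (SE 0.057, edgeR adjusted P = 0.259) for Tap1 and -0.10 (SE 0.066, edgeR adjusted P = 0.301) for Tap2. Both were called lower with library size alone, at -0.20 (edgeR adjusted P = 0.0163) and -0.21 (edgeR adjusted P = 0.0282), and Tap2 also without normal-glucose replicate 2 (-0.17, edgeR adjusted P = 0.0358). Per exon length the ratio of Tap1 to Tap2 averaged 0.529 in each group.

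Tapbp, on chr17:33915899-33929292 (plus strand), encodes tapasin, which bridges the transporter and the heavy chain during peptide loading. Tapbp had 228, 198 and 212 CPM in normal glucose and 258, 249 and 245 CPM in high glucose. The groups did not overlap, and the mean rose from 213 ± 14.9 to 251 ± 6.62 CPM (n = 3 per group), a log2 fold change of 0.24 (SE 0.060, 95% interval 0.10 to 0.37, adjusted P = 0.0129 in edgeR's quasi-likelihood test). The call was lost with library size alone (0.12, edgeR adjusted P = 0.133) and without high-glucose replicate 1, 2 or 3 (edgeR adjusted P = 0.0868, 0.0507 and 0.0522). Tapbp shares 149 exonic bases with Zbtb22 on the same strand (3714-4646 counts per sample) and 904 with the antisense gene Gm19412 (124-187 counts).

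Of 12 other tested factors of peptide loading and trimming, 2 were called higher and 3 lower, against 16.9% and 14.5% of all tested genes. Calr, which had the highest CPM of them, encodes the chaperone calreticulin of the loading complex and averaged 1590 ± 123 and 1600 ± 58.7 CPM, a log2 fold change of 0.00 (95% interval -0.14 to 0.14). Canx, which encodes the chaperone calnexin of newly made heavy chains, fell from 718 ± 15.7 to 623 ± 23.2 CPM (log2 fold change -0.20, SE 0.051, edgeR adjusted P = 0.0122), a call lost without high-glucose replicate 1 and without high-glucose replicate 3. Lap3, a cytosolic aminopeptidase, fell from 64.9 ± 2.44 to 54.6 ± 2.88 CPM (log2 fold change -0.25, SE 0.057, edgeR adjusted P = 0.00777). Erap1, the aminopeptidase that trims peptides in the endoplasmic reticulum, had a log2 fold change of 0.19 (edgeR adjusted P = 0.0356), a call kept in 1 of the 6 fits that left out a sample. Tapbpl, a tapasin-related editor of peptides, had a log2 fold change of -0.23 (edgeR adjusted P = 0.0395), also kept in 1 of those 6 fits. Ide, a protease, had a log2 fold change of 0.24 (edgeR adjusted P = 0.0119), kept in 4 of the 6 and lost without normal-glucose replicate 3 and without high-glucose replicate 2. When a sample was left out, between 0 and 3 genes of this list were called higher and between 1 and 3 lower.

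**Figure D2:**
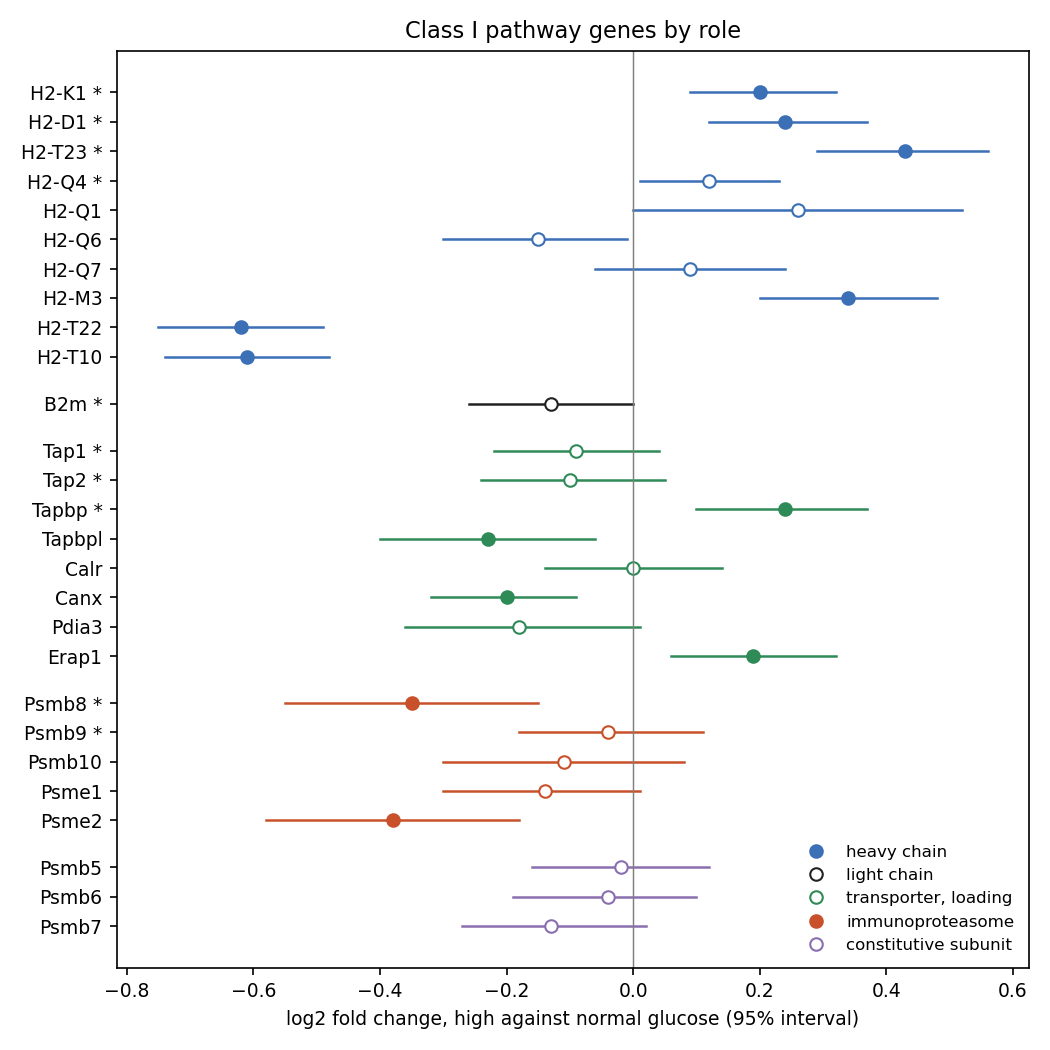
Log2 fold change in high against normal glucose (x axis) with its 95% interval for class I pathway genes, grouped by role on the y axis. Asterisks mark the 10 genes, and filled circles are genes called at an adjusted P value under 0.05. H2-T23 at 0.43 and H2-T22 at -0.62 lie on opposite sides within the heavy chains, and Psmb8 and Psme2 lie below 0 with intervals that do not reach it.

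Psmb8 encodes the inducible chymotrypsin-like subunit of the immunoproteasome, and is on chr17:34197721-34201454 (plus strand) between Tap1 and Tap2. Psmb8 had 54.8, 41.0 and 47.4 CPM in normal glucose and 37.8, 37.1 and 37.5 CPM in high glucose. The 3 high-glucose samples were nearly equal and lay below all normal-glucose samples, of which replicate 1 was highest. The mean fell from 47.7 ± 6.94 to 37.4 ± 0.357 CPM (SD, n = 3 per group), a log2 fold change of -0.35 (SE 0.090, 95% interval -0.55 to -0.15, adjusted P = 0.0139 in edgeR's quasi-likelihood test). The call held in 17 of 17 alternative fits, with log2 fold changes from -0.46 to -0.26. An antisense gene that overlaps 498 exonic bases of Psmb8, Gm20496, had 4-11 counts per sample.

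Psmb9, on chr17:34181987-34187764 (minus strand), encodes the inducible subunit that replaces the Psmb6 product, and had the lowest level per exon length of the 10 genes. It had 13.5, 12.3 and 12.6 CPM in normal glucose and 12.9, 12.2 and 12.4 CPM in high glucose. The groups overlapped, and the log2 fold change was -0.04 (SE 0.065, 95% interval -0.18 to 0.11, edgeR adjusted P = 0.707). Psmb9 and Tap1 overlap by 212 exonic bases on opposite strands. The remaining inducible catalytic subunit, Psmb10, averaged 21.2 ± 2.61 and 19.7 ± 0.874 CPM and was not called either (log2 fold change -0.11, SE 0.086, edgeR adjusted P = 0.369). The differences between the subunits' fold changes were not tested.

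Of the 6 other genes of the immunoproteasome list, Psme2 was called lower and Psme3 higher, 1 each, against 14.5% and 16.9% of all tested genes. Psme1 and Psme2 encode the subunits of the interferon-inducible PA28 activator, which opens the proteasome. Psme2 had 106, 80.7 and 87.7 CPM in normal glucose and 67.4, 71.6 and 72.2 CPM in high glucose, groups that did not overlap. It fell by 0.38 on the log2 scale (SE 0.090, edgeR adjusted P = 0.00922), and 22.9% of its windows are also in Psme2b. Psme1 went from 63.3 ± 6.16 to 57.3 ± 1.42 CPM (log2 fold change -0.14, SE 0.070, edgeR adjusted P = 0.149). The call of Psme3, a nuclear activator (log2 fold change 0.17, edgeR adjusted P = 0.0356), was kept in 1 of the 6 fits that left out a sample. The number of genes called lower in this list was 4 without normal-glucose replicate 2.

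Each inducible catalytic subunit was set against the constitutive subunit it replaces, as a ratio per exon length within a sample. The size of a ratio depends on the annotated exon lengths (3381 bases for Psmb8, 899 for Psmb5), but its log2 difference between the groups does not. The constitutive subunit genes Psmb5, Psmb6 and Psmb7 were not called, with log2 fold changes of -0.02, -0.04 and -0.13. The ratio of Psmb8 to Psmb5 was 0.151, 0.128 and 0.129 in normal glucose, against 0.108, 0.108 and 0.110 in high glucose. These groups were apart, with a log2 difference of -0.32 (exact two-sided permutation P = 0.1, the smallest that 3 against 3 allows, and 0.3 adjusted over the 3 ratios). The ratio of Psmb9 to Psmb6 averaged 0.0724 in each group, a log2 difference of 0.00 (exact permutation P = 1.0). For Psmb10 to Psmb7 the means were 0.486 ± 0.0334 and 0.492 ± 0.0164, a log2 difference of 0.02 (exact permutation P = 0.9). Of the windows of Psmb5, 36.8% are found in another gene, mostly in Gm3375.

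**Figure D3:**
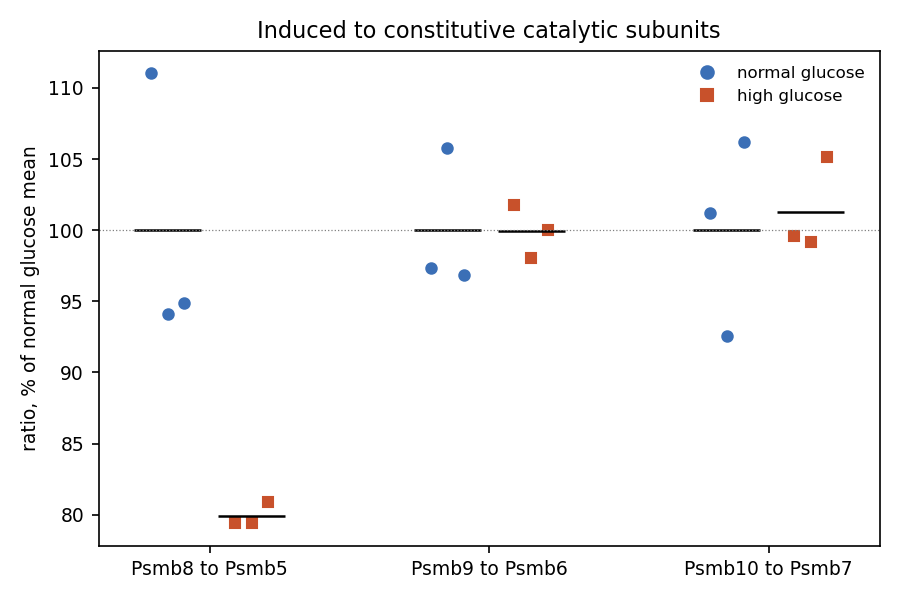
Ratio of each inducible to its constitutive catalytic subunit gene per exon length, in each sample, as a percentage of the mean ratio in normal glucose (y axis). Circles are normal glucose, squares are high glucose and bars are group means (n = 3). The high-glucose samples lay below the normal-glucose samples for Psmb8 to Psmb5, and the groups overlapped for Psmb9 to Psmb6 and Psmb10 to Psmb7.

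Levels were compared between genes as normalized CPM per kilobase of exon (RPKM). The length was that of all annotated exons of a gene joined, for example 860 bases for B2m and 3381 for Psmb8. It can exceed the length of the main transcript, so the order between genes depends on the annotation. In normal glucose the order was B2m at 1320 ± 54.8, H2-D1 at 319 ± 19.7, H2-K1 at 187 ± 7.04, Tapbp at 58.6 ± 4.11, H2-Q4 at 39.7 ± 0.958, H2-T23 at 38.4 ± 2.64, Tap2 at 27.6 ± 2.25, Tap1 at 14.6 ± 0.831, Psmb8 at 14.1 ± 2.05 and Psmb9 at 3.50 ± 0.164 RPKM (SD, n = 3). The neighbors H2-Q4 and H2-T23, and the neighbors Tap1 and Psmb8, overlapped between samples in normal glucose. In high glucose no neighbors overlapped, and H2-T23 at 51.6 ± 0.742 RPKM stood above H2-Q4 at 43.3 RPKM. With these lengths, Tap1 at 13.7 ± 0.411 RPKM stood above Psmb8 at 11.1 ± 0.106 RPKM in high glucose, an order that other lengths could change.

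**Figure D4:**
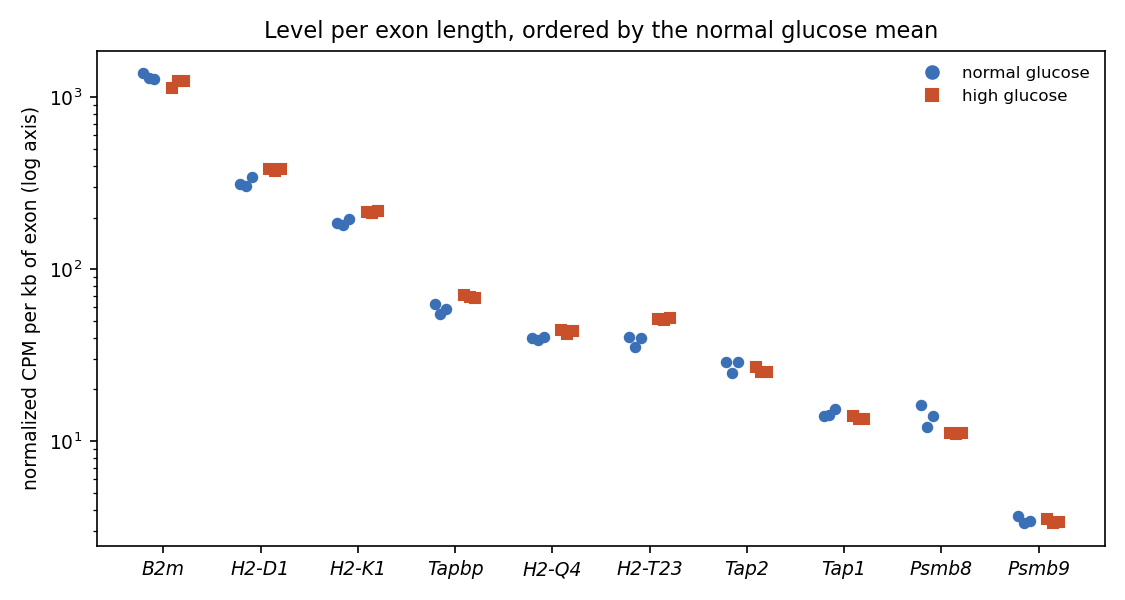
Normalized CPM per kilobase of exon (y axis, log scale) of the 10 class I genes in each sample, ordered by the mean in normal glucose. Circles are normal glucose and squares are high glucose. B2m was highest at 1320 and Psmb9 lowest at 3.50 RPKM in normal glucose, and H2-T23 and H2-Q4 overlapped in normal glucose and were apart in high glucose.

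Class I-like genes, whose products have the class I fold but do not present ordinary peptides, were called higher for 4 of the 7 tested, against 16.9% of all tested genes, and 0 were called lower. Cd1d1, which presents lipids to natural killer T cells, had 34.7, 34.7 and 34.2 CPM in normal glucose and 55.7, 59.4 and 58.4 CPM in high glucose. It rose by 0.75 on the log2 scale (SE 0.050, edgeR adjusted P = 2.43e-06), beyond the range of the 10 genes. Its close relative Cd1d2 rose by 0.62 (edgeR adjusted P = 3.98e-04). Windows shared by Cd1d1 and Cd1d2 were not computed, so their rises may not be independent measurements. Mr1, which presents vitamin B metabolites, had a log2 fold change of 0.26 (edgeR adjusted P = 0.00994) that was lost without high-glucose replicate 2 and without high-glucose replicate 3. Fcgrt, the neonatal Fc receptor gene, had a log2 fold change of 0.24 (edgeR adjusted P = 0.0360) that was kept in 1 of the 6 fits leaving out a sample. The number called higher was 2 with library size alone, 2 without high-glucose replicate 2 and 2 without high-glucose replicate 3. Class II genes were near the floor in part, with H2-Aa and H2-Oa at 0 in all samples, and of 7 tested, Cd74 was called higher (0.281 ± 0.0614 to 0.615 ± 0.0859 CPM) and H2-DMa lower (7.97 ± 0.393 to 6.19 ± 0.531 CPM), while H2-DMb1, with the highest CPM of the list, was not called (log2 fold change 0.03).

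The regulators of class I transcription were examined next. Of 19 tested, 7 were called higher and 1 lower, against 16.9% and 14.5% of all tested genes, with a median log2 fold change of 0.13. Nlrc5, the class I transactivator, averaged 21.9 ± 2.27 and 21.1 ± 0.831 CPM and was not called (log2 fold change -0.06, 95% interval -0.23 to 0.11, edgeR adjusted P = 0.622). Irf1, an activator of class I promoters, was not called either (log2 fold change 0.06, 95% interval -0.05 to 0.18, edgeR adjusted P = 0.403). Irf2, which binds the same element, rose from 27.9 ± 1.07 to 35.8 ± 1.19 CPM (log2 fold change 0.36, edgeR adjusted P = 6.10e-04). Of the NF-kappa B subunits, Relb rose by 0.46 (edgeR adjusted P = 5.35e-04) and Nfkb1 by 0.30 (edgeR adjusted P = 9.10e-04). Irf8, a partner of other interferon regulatory factors, rose by 0.51 from 1.29 ± 0.114 CPM (edgeR adjusted P = 0.00786). The calls of Nfyb (log2 fold change 0.22), Creb1 (0.28), Nfkb2 (0.16) and Stat2 (-0.17, the highest CPM of the list) were kept in at most 2 of the 6 fits that left out a sample. The number called higher was 4 without normal-glucose replicate 3 and without each high-glucose replicate. With upper quartile factors 5 of these regulators were called higher and 3 lower. With library size alone 4 were called higher and 3 lower, and the median log2 fold change was 0.01.

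Interferon-stimulated genes, most of which share their inducers with class I genes, were mainly lower in high glucose. Of 24 tested, 14 were called lower and 1 higher, with a median log2 fold change of -0.23, against 14.5% of all tested genes called lower. Ifit1, an antiviral RNA-binding protein gene, had 123, 114 and 110 CPM in normal glucose and 58.2, 60.0 and 58.1 CPM in high glucose, and fell by 0.98 on the log2 scale (edgeR adjusted P = 7.82e-07). Isg15, a ubiquitin-like modifier gene, fell by 0.88 (edgeR adjusted P = 1.43e-05) and Irgm1, an immunity-related GTPase gene, by 0.82 (edgeR adjusted P = 8.82e-07). Ifitm3, which had the highest CPM of the list, was not called (801 ± 26.1 and 794 ± 30.8 CPM). Irgm2, Iigp1 and Igtp, like Irgm1 immunity-related GTPase genes, were not called either (log2 fold changes 0.08, 0.10 and -0.13). The same held for Gbp2 (-0.13), Gbp7 (-0.01), Cxcl9 (-0.13), Ifi35 (-0.17) and Parp14 (0.05). Cd274, which encodes the checkpoint ligand PD-L1, rose from 4.86 ± 0.288 to 8.59 ± 0.590 CPM (log2 fold change 0.82, edgeR adjusted P = 5.73e-05). The antiviral genes Rsad2, Ifit3 and Mx1 fell by 1.83, 0.96 and 0.95, and the chemokine gene Cxcl10 by 0.99 (edgeR adjusted P at most 6.94e-04). The remaining called genes had log2 fold changes of -0.47 (Mx2), -0.32 (Oasl2), -0.26 (Oas1a, Bst2 and Xaf1), -0.20 (Gbp3) and -0.18 (Irf7). The call of Gbp3 was lost without high-glucose replicate 1, and that of Irf7 was kept in 2 of the 6 fits that left out a sample. Between 12 and 16 of these genes were called lower when a sample was left out, and 17 with library size alone.

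Of 11 interferon receptor and signaling genes, 6 were called higher and 1 lower, against 16.9% and 14.5% of all tested genes, and 4 were called higher with library size alone. The type I interferon receptor genes Ifnar1 and Ifnar2 rose by 0.37 and 0.53 (edgeR adjusted P = 8.39e-04 and 6.34e-05), the kinase gene Jak2 by 0.51 (edgeR adjusted P = 1.82e-04) and the inhibitor gene Socs1 by 0.52 (edgeR adjusted P = 6.42e-04). Usp18, which encodes a negative regulator of the type I receptor and is itself induced by interferon, fell by 0.68 (edgeR adjusted P = 4.61e-06). The interferon-gamma receptor genes Ifngr1 and Ifngr2 were not called, at 0.12 and -0.12, and neither was the kinase gene Jak1, which had the highest CPM of the list (0.07). The inhibitor gene Socs3 rose by 0.28 (edgeR adjusted P = 0.00689), a call lost with library size alone. Ptpn2, a phosphatase gene, had a log2 fold change of 0.22 (edgeR adjusted P = 0.0393), a call kept in 1 of the 6 fits that left out a sample.

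**Figure D5:**
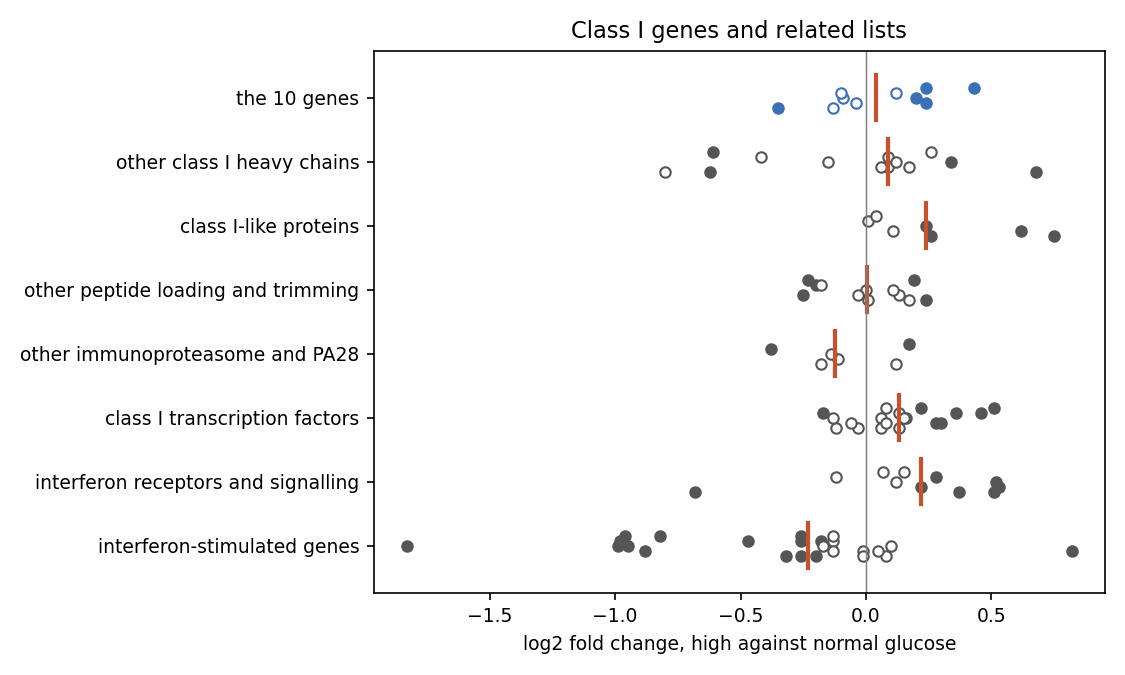
Log2 fold change in high against normal glucose (x axis) of each tested gene in the 10 class I genes and 7 related lists (y axis). Filled circles are called genes, open circles are not, and vertical bars are list medians. The 10 genes lay between -0.35 and 0.43, and the interferon-stimulated genes reached -1.83.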

How the data were processed

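The authors used Trimmomatic for trimming, HISAT2 for alignment to GRCm38 and StringTie for counting (no versions given), and deposited raw counts per gene, 1 column per sample. The methods name a QIAGEN kit and HiSeq reads of length 75, the labels TRIzol and DNBSeq. Among low counts, 2 was nearly as frequent as 1 (9280 against 10842 entries), so halved counts were also tried, and counts may not be independent molecules. Of 55487 identifiers, 260 had no symbol (0.0069% of counts). The fit used R 4.3.3 and edgeR 4.0.16: filterByExpr (minimum count 10, minimum total 15), TMM, quasi-likelihood test, Benjamini-Hochberg adjustment, threshold 0.05. The coefficient of variation between replicates was 8.44%, and 3 counts equaled 0.0211-0.0258 CPM. Positions and exon lengths, the latter with all annotated exons of a gene joined, came from GENCODE for GRCm38. Replicates differed by more than sampling noise (chi-square per degree of freedom at least 9.64). The fit was tested on simulated data, with changed genes drawn from all tested genes. Between 47 and 50 tested genes were changed at each size and 18572 were unchanged, and each gene had the dispersion of the trend. In the data 31.4% of tested genes were called, so the shares that follow may not carry over to the data. It called 22% of genes with a log2 change of 0.3 in either direction, 56% at 0.5, 77.6% at 1 and 100% at 2. Of the unchanged genes it called 0.0269%. A gene that was not called may therefore still differ by a small amount. These shares are not specific to the levels of the 10 genes. Named genes were the 10 genes, and from the other lists those past the threshold, that with the highest CPM and those needed to explain a role. Of the cell type markers, those the check of the label turned on were named, and of the interferon-stimulated genes all. Members and lists were chosen with earlier results of these data known. Alternatives were other scalings, filters, thresholds, DESeq2 1.42.0, the likelihood ratio test, robust fitting, summed symbols, a replicate block and each sample left out.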

Additional observations from a re-analysis of the deposited data

How the results depend on the processing

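No class I gene of the 10 changed sign in any of 17 alternative fits. H2-T23 and Psmb8 kept their calls in all 17, H2-K1 and H2-D1 in 14 and Tapbp in 13. B2m and Tap2 passed the threshold in 2 and Tap1 in 1. Over all genes, 3212 were called higher and 2757 lower. These counts were 1819 and 4884 with library size alone, 1946 and 1671 at an adjusted P value under 0.01, 895 and 1165 with a fold of at least 1.5, and 1988-3149 and 2048-3065 when a sample was left out. Of the 10 genes, 4 were called higher and 1 lower. With library size alone these were 1 and 4, at an adjusted P value under 0.01 they were 2 and 0, with a fold of at least 1.5 they were 0 and 0, and with upper quartile factors 2 were called lower. When a sample was left out, 1 to 4 were called higher and 1 to 2 lower (2 without normal-glucose replicate 2). The log2 difference of the summed heavy chain level was 0.01 with library size alone and 0.24 for the 4 heavy chains among the 10 genes. The cause of these differences was not tested.

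The replicate numbers shared by both groups do not mark pairs in the labels. Deviations of same-numbered samples correlated at -0.025, 0.0038 and 0.013, and not every sample correlated best with its own number. With the replicate block, 2909 genes were called higher and 2418 lower, and the 10 genes again gave 4 higher and 1 lower. The block left the log2 differences of the summed level (0.12) and of the Psmb8 to Psmb5 ratio (-0.32) as they were, with an exact permutation P of 0.25, the smallest that 3 pairs allow.

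The lowest of the 10 genes, Psmb9, averaged 12.8 CPM in normal glucose and had 1421-1825 counts per sample. Whether depth limited the calls was not tested.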
